A study of Mus musculus with 10 samples.

Results

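The Cbx and Phc genes encode chromobox and polyhomeotic subunits of Polycomb repressive complex PRC1. In primary mouse MLL-AF9 leukaemias that were WT or null for the PRC2 subunit Ezh2 or Eed, 7 of them (Cbx2, Cbx6, Cbx7, Cbx8, Phc1, Phc2 and Phc3) were followed. Every probe set annotated with 1 of these symbols was taken, which gave 14 of the 37762 probe sets with a single symbol, for 7 of 20564 genes. Cbx7 had 3 probe sets, Phc1 had 1, and Cbx2, Cbx6, Cbx8, Phc2 and Phc3 had 2 each.

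The arrays covered 4 Ezh2-null, 3 Eed-null and 3 WT samples, which the submitters call biological replicates. All mice were on the C57B/6 background. In every group, WT included, leukaemia came from 100000 cells of replated leukaemic colonies injected after 600 cGy of irradiation, carried an MLL-AF9 retrovirus marked by GFP, and was exposed to pIpC at 2 to 3 weeks to switch on Cre. Live bone marrow cells positive for GFP and for YFP, which reports that Cre had acted, were sorted and profiled. The promoter that drives Cre and the donors or colonies behind each array are not given in the sources used here, so donor and genotype cannot be told apart. Such sorted bulk RNA also cannot separate fewer cells of a type from less RNA per cell.

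PRC1 is a ubiquitin ligase for histone H2A that compacts chromatin and holds developmental genes silent. In its canonical form a Cbx protein binds histone H3 trimethylated at lysine 27, the mark that PRC2 writes with its catalytic subunit Ezh2 or Ezh1 and its core subunit Eed, and a Phc protein links complexes to each other through its SAM domain. Different Cbx proteins are alternatives for the same place in the complex. In mouse blood, Cbx7 is known for promoting self-renewal of stem cells, and Cbx8 is known as a partner of AF9 that MLL-AF9 leukaemia uses. Phc1 is known from mouse knockouts as a factor that blood stem cells and progenitors need.

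The bases just before the listed start sites of Cbx6, Cbx7 and Phc1 are shown because Cbx6 and Cbx7 held the probe sets that were higher in every Eed-null array than in every WT array, and Phc1 the one that varied most between arrays. The sequences are from RefSeq (GRCm38.p6), run 5′ to 3′ on the strand of the gene and cover 250 bases before the start, and capitals mark each CG, the dinucleotide whose clusters PRC2 and PRC1 are known to occupy. The windows lie at chr15:79834334-79834583 for Cbx6, chr15:79932647-79932896 for Cbx7 and chr6:122340228-122340477 for Phc1, all on the minus strand. The Cbx7 window precedes the start site that the RefSeq promoter table lists and lies within the annotated span of the gene, chr15:79915804-79971143, whose upper end is farther upstream.
Cbx6: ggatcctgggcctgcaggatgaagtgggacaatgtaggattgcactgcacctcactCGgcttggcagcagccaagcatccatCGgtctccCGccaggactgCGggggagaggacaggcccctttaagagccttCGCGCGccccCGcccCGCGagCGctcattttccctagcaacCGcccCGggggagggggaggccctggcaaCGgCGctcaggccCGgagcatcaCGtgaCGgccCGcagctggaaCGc
Cbx7: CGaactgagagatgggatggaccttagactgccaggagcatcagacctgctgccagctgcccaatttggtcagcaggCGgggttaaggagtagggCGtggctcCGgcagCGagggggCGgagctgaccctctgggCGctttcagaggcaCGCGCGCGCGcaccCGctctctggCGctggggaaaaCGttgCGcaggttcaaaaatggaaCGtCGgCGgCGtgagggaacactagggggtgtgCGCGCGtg
Phc1: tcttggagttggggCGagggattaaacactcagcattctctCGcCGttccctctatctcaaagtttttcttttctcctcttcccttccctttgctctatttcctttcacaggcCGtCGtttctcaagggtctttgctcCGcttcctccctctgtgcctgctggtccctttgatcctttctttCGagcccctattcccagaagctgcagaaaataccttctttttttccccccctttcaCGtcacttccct
The letters CG, which read the same on both strands, occurred 20 times before Cbx6, 23 times before Cbx7 and 8 times before Phc1, against a median of 6 over 32851 such windows of all genes. As many or more were present in 17.9% of all windows for Cbx6, 13.3% for Cbx7 and 43.0% for Phc1. Of the other members, the window of Cbx8 held 22, that of Phc3 held 12, and those of 3 alternative Phc2 starts held 13, 1 and 34. The count describes these windows only, and no binding or histone mark was measured here.

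Arrays were alike in overall brightness but not in the levels of granulocyte and monocyte genes. The median intensity was 137 to 144 on all 10 arrays, and any pair of arrays from the same genotype correlated at 0.973 to 0.988 (Ezh2-null), 0.951 to 0.975 (Eed-null) or 0.956 to 0.975 (WT). Eed-null replicate 1 and WT replicate 3 stood at the ends of the first principal component (27.9% of the variance), at 90.9 and -58.5. Of the myeloid lists, 22 granulocyte genes averaged 12.12 to 12.55 on the log2 scale in Ezh2-null, 11.99 to 12.42 in Eed-null and 10.96 to 12.32 in WT, where replicate 3 gave the lowest value. For 16 monocyte genes the averages were 9.06 to 10.04, 8.61 to 9.51 and 9.15 to 10.19 in the same order, with Eed-null replicate 1 lowest. Of 9 erythroid, 8 megakaryocyte, 9 B cell, 9 T and NK cell and 10 stromal and endothelial genes, 1, 3, 3, 2 and 2 lay above the median of all genes. Hoxa9, a gene the fusion protein turns on, read 11.11 to 12.19 on all arrays. Eed, the targeted gene, was lower in Eed-null leukaemia than in WT by a log2 difference of -1.89 (SE 0.20; limma, adjusted p = 0.0100; 0.0562 with the replicate block and 0.105 with only the compared groups in the fit), while Ezh2 differed by -0.84 (SE 0.25) in Ezh2-null and did not pass (limma, adjusted p = 1.00). Whether these probe sets lie in the deleted exons is unknown here, and the Ezh2-null arrays spanned 8.91 to 9.36 for Ezh2, a range that also held 1 WT array, replicate 2 at 9.35.

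No Cbx or Phc probe set passed the test in any comparison. The test was limma on log2 intensity over all probe sets, with a call at an adjusted p under 0.05. Ezh2-null against WT called 0 of the 14, against 0.0265% of all probe sets, with 1 of the 14 at an unadjusted p under 0.05 against 3.86%. Eed-null against WT called 0 of the 14, against 0.114%, with 4 at an unadjusted p under 0.05 against 10.8%. Eed-null against Ezh2-null called 0 of the 14, against 0.0662%, with 2 at an unadjusted p under 0.05 against 9.43%. Intervals below are the 95% intervals of limma. In none of the orders of group means given below for these 14 probe sets did neighbouring groups differ beyond the test.

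**Figure D1:**
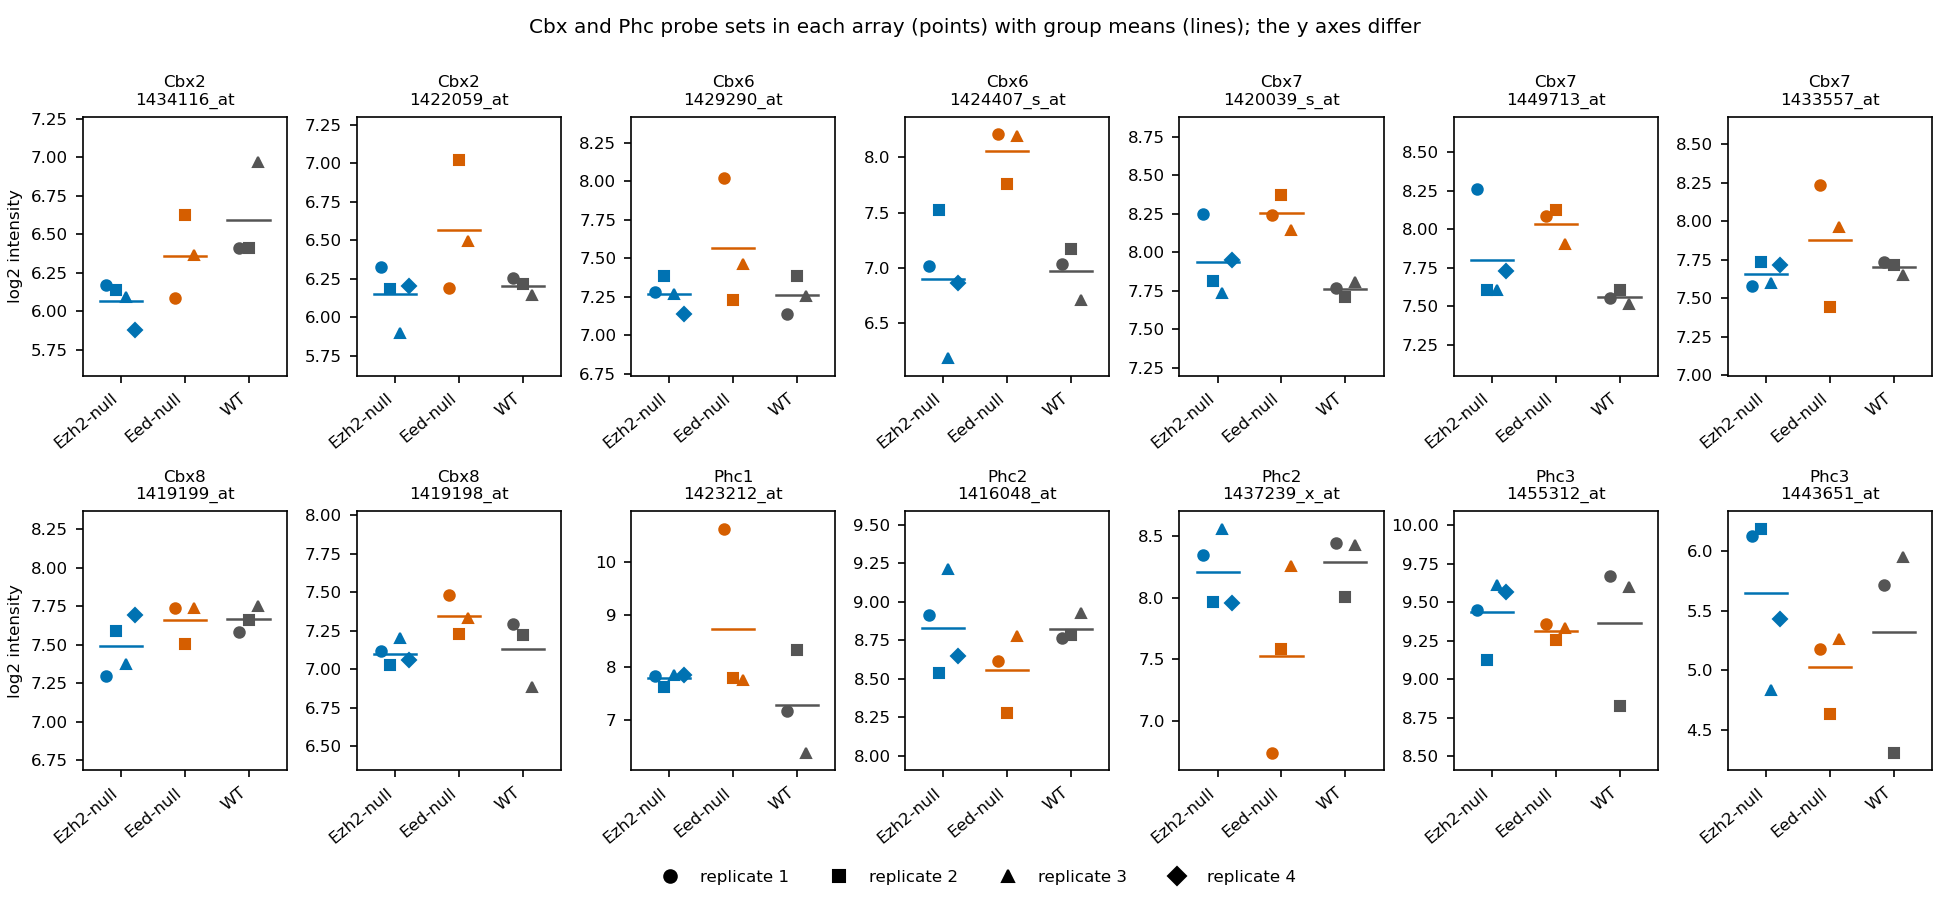
The log2 intensity (y axis, with a range of its own in each panel) of the 14 Cbx and Phc probe sets in 4 Ezh2-null, 3 Eed-null and 3 WT arrays (x axis), with a point per array and a line at each group mean. Cbx6 1424407_s_at and the Cbx7 probe sets 1420039_s_at and 1449713_at lie higher in all Eed-null arrays than in any WT array, and Phc1 reads 10.64 in Eed-null replicate 1 alone.

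Cbx6 is a less studied chromobox subunit that can enter PRC1. It showed the clearest separation of Eed-null leukaemia among the 14 probe sets. Probe set 1424407_s_at read 7.02, 7.53, 6.19 and 6.87 in Ezh2-null replicates 1 to 4, then 8.21, 7.76 and 8.19 in Eed-null replicates 1 to 3, against 7.04, 7.18 and 6.71 in WT replicates 1 to 3. Every Eed-null value lay above every Ezh2-null and every WT value, while Ezh2-null and WT overlapped. The mean was 8.05 ± 0.25 (SD, n = 3) in Eed-null and 6.98 ± 0.24 (SD, n = 3) in WT, a log2 difference of 1.08 (SE 0.30, interval 0.42 to 1.74), or 2.11-fold, which did not pass over all probe sets (limma, adjusted p = 0.267). Against the Ezh2-null mean of 6.90 ± 0.55 (SD, n = 4) the difference was 1.15 (SE 0.28, interval 0.54 to 1.77), again short of the threshold (limma, adjusted p = 0.261). Ezh2-null differed from WT by -0.075 (interval -0.69 to 0.54). Leaving out any single array left the Eed-null difference from WT between 0.95 and 1.23.

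The other Cbx6 probe set, 1429290_at, did not repeat that separation. It read 7.28, 7.38, 7.27 and 7.14 in Ezh2-null, 8.02, 7.23 and 7.46 in Eed-null, and 7.14, 7.39 and 7.26 in WT. Only Eed-null replicates 1 and 3 lay above all WT arrays, and replicate 2 lay among them. The Eed-null difference from WT was 0.31 (SE 0.20, interval -0.14 to 0.75; limma, adjusted p = 0.620), and it was 0.083 without Eed-null replicate 1. Which part of the transcript either probe set reads is not given in the sources used here, and the suffix _s_at marks probes that can match more than 1 transcript. Cbx6 (chr15:79823898-79834333, GRCm38.p6) shares its upper end with the read-through gene Npcd, also named Cbx6-Nptxr, so a probe set on shared exons cannot tell them apart.

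Cbx7, the chromobox subunit tied to stem cell self-renewal and to silencing of Cdkn2a, separated Eed-null from WT on 2 of its 3 probe sets. Probe set 1420039_s_at read 8.25, 7.81, 7.73 and 7.95 in Ezh2-null, 8.25, 8.37 and 8.15 in Eed-null, and 7.77, 7.71 and 7.81 in WT. All Eed-null arrays lay above all WT arrays, and Ezh2-null replicate 1 lay with the Eed-null arrays while replicates 2 and 3 lay with WT. The Eed-null mean of 8.25 ± 0.11 (SD, n = 3) was above the WT mean of 7.76 ± 0.048 (SD, n = 3) by 0.49 (SE 0.17, interval 0.11 to 0.87), or 1.41-fold, and did not pass (limma, adjusted p = 0.359). A second Cbx7 probe set, 1449713_at, read 8.26, 7.61, 7.61 and 7.73 in Ezh2-null, 8.08, 8.12 and 7.90 in Eed-null, and 7.55, 7.61 and 7.52 in WT. It again placed all Eed-null arrays above all WT arrays and Ezh2-null replicate 1 apart from the other Ezh2-null arrays. Its Eed-null difference from WT was 0.48 (SE 0.19, interval 0.047 to 0.91; limma, adjusted p = 0.426), or 1.39-fold. For both probe sets the order of the means was Eed-null, Ezh2-null, WT.

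Between Ezh2-null and WT the Cbx7 differences were 0.17 (interval -0.18 to 0.53) for 1420039_s_at and 0.24 (interval -0.16 to 0.65) for 1449713_at. Without Ezh2-null replicate 1 they were 0.070 and 0.088. The last Cbx7 probe set, 1433557_at, differed from WT by 0.18 (interval -0.26 to 0.62) in Eed-null and -0.044 (interval -0.45 to 0.37) in Ezh2-null. Its Eed-null arrays read 8.23, 7.44 and 7.96, on both sides of the WT values of 7.65 to 7.73.

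Cbx2 is the chromobox subunit with a long charged stretch that compacts chromatin, and both of its probe sets were dim, below the array median on all 10 arrays. Probe set 1434116_at read 6.17, 6.14, 6.09 and 5.88 in Ezh2-null, 6.08, 6.63 and 6.37 in Eed-null, and 6.41, 6.41 and 6.97 in WT. Every Ezh2-null value lay below every WT value, and Eed-null overlapped both. The Ezh2-null mean was 6.07 ± 0.13 (SD, n = 4) and the WT mean 6.60 ± 0.32 (SD, n = 3), a log2 difference of -0.53 (SE 0.18, interval -0.92 to -0.13) that did not pass (limma, adjusted p = 1.00). It was -0.34 without WT replicate 3, the array lowest in granulocyte genes, and -0.29 with the granulocyte average as a covariate. What the low granulocyte level of that array contributes was not tested beyond these fits.

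The second Cbx2 probe set, 1422059_at, ran in another order. It read 6.33, 6.18, 5.90 and 6.20 in Ezh2-null, 6.19, 7.02 and 6.50 in Eed-null, and 6.25, 6.21 and 6.14 in WT. Eed-null replicate 2 stood highest, and replicate 1 lay within WT. Eed-null differed by 0.42 from Ezh2-null (SE 0.19, interval 0.0030 to 0.83; limma, adjusted p = 0.528) and by 0.37 from WT (interval -0.075 to 0.81), and without Eed-null replicate 2 these became 0.19 and 0.14. The probe sets of Cbx2 thus disagreed on the sign of the Eed-null difference from WT.

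Cbx8, the subunit that binds AF9, differed little. Probe set 1419199_at read 7.30, 7.59, 7.37 and 7.69 in Ezh2-null, 7.74, 7.51 and 7.74 in Eed-null, and 7.58, 7.66 and 7.75 in WT, with all groups overlapping. The difference from WT was -0.18 (interval -0.51 to 0.16) in Ezh2-null and -0.0044 (interval -0.36 to 0.35) in Eed-null. These intervals leave room for changes of up to 1.42-fold and 1.28-fold. The other probe set, 1419198_at, read 7.23 to 7.49 in Eed-null against 7.03 to 7.21 in Ezh2-null, so that these groups did not overlap, at a difference of 0.25 (SE 0.14; limma, adjusted p = 0.617). Against WT, which spanned 6.89 to 7.30, the Eed-null difference was 0.21 (interval -0.13 to 0.55).

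Other gene lists also differed between Eed-null and WT, some of them without overlap of the arrays. The average log2 level of 9 B cell genes was 6.80 to 6.95 in Eed-null, against 6.54 to 6.76 in Ezh2-null and 6.63 to 6.76 in WT. For 8 megakaryocyte and platelet genes the averages were 7.36 to 7.46 in Eed-null, 7.11 to 7.27 in Ezh2-null and 7.09 to 7.29 in WT, with Pf4 at 5.94 to 6.41. Those of 9 T and NK cell genes were 7.11 to 7.23 in Eed-null and 6.99 to 7.05 in WT, with Cd3e at 6.10 to 6.49, but Ezh2-null spanned 6.96 to 7.24. So Eed-null lay above both other groups for the B cell and megakaryocyte lists and above WT alone for the T and NK cell list. All 25 cell cycle genes had a negative difference of Eed-null from WT (median -0.39), and all 25 from Ezh2-null (median -0.32), with averages of 9.32 to 10.23 in Eed-null, 9.99 to 10.48 in Ezh2-null and 10.03 to 10.63 in WT. Of the 20 Myc and nucleolar genes, 18 had a negative difference of Eed-null from WT (median -0.34), with averages of 9.64 to 10.22 in Eed-null and 9.77 to 10.99 in WT. The arrays of Eed-null and WT thus overlapped for the cell cycle list and for the Myc and nucleolar list. None of the genes of these 5 lists was called in any comparison (limma). For Eed-null against WT, 8 of 25 cell cycle and 3 of 20 Myc and nucleolar genes had an unadjusted p under 0.05. So had 1 of 9 B cell, 1 of 8 megakaryocyte and platelet and 1 of 9 T and NK cell genes, beside 9.94% of all genes. Of the myeloid lists, 11 of 16 monocyte genes had a negative difference of Eed-null from WT (median -0.69). For granulocyte genes, 17 of 22 differences were positive (median 0.49). In both lists the array averages of Eed-null and WT overlapped, and no gene was called in that comparison. Averages also overlapped for 9 erythroid genes (6.48 to 6.64 in Eed-null, 6.37 to 6.67 in WT). So did those of 10 stromal and endothelial genes (6.58 to 6.63 in Eed-null, 6.49 to 6.74 in WT). Of 14 haematopoietic stem and progenitor genes, 11 differences were positive (median 0.28). Their averages overlapped too, at 9.06 to 9.79 in Eed-null and 9.20 to 9.41 in WT. With the granulocyte average as a covariate, the Eed-null difference from WT was 0.97 for Cbx6 1424407_s_at. In the same fit it was 0.49 for Cbx7 1420039_s_at and 0.43 for Cbx7 1449713_at. The part of all these shifts in the Cbx6 and Cbx7 values was not tested beyond the fits with that covariate.

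Across the 9 Cbx probe sets, the median difference of Eed-null from WT was 0.31, with 7 positive and 2 negative, beside a median of 0.020 and 53.3% positive over all probe sets. Several of these probe sets share a gene. At the brightest probe set of each Cbx gene the difference was -0.24 for Cbx2, 0.31 for Cbx6, 0.49 for Cbx7 and -0.0044 for Cbx8. With the brightest probe set of all 7 members, 3 differences were positive and 4 negative, at a median of -0.0044. Of those 7, 1 showed no overlap, against 12.8% of all genes. Eed-null lay wholly above WT in 3 of the 14 Cbx and Phc probe sets and wholly below in 0, against 7.29% and 5.92% of all probe sets. Eed-null lay wholly above Ezh2-null in 2 of the 14 and wholly below in 0, against 6.38% and 4.28%. Ezh2-null lay wholly above WT in 0 of the 14 and wholly below in 1, against 2.45% and 2.84%. Since both null groups were set against the same WT arrays, these counts share them. For Ezh2-null against WT, the Cbx median was -0.044, with 3 positive and 6 negative, beside -0.017 over all probe sets. Against Ezh2-null, all 9 Cbx differences of Eed-null were positive, from 0.17 to 1.15 with a median of 0.29, and 0 of them passed, beside a median of 0.032 and 55.7% positive over all probe sets.

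**Figure D2:**
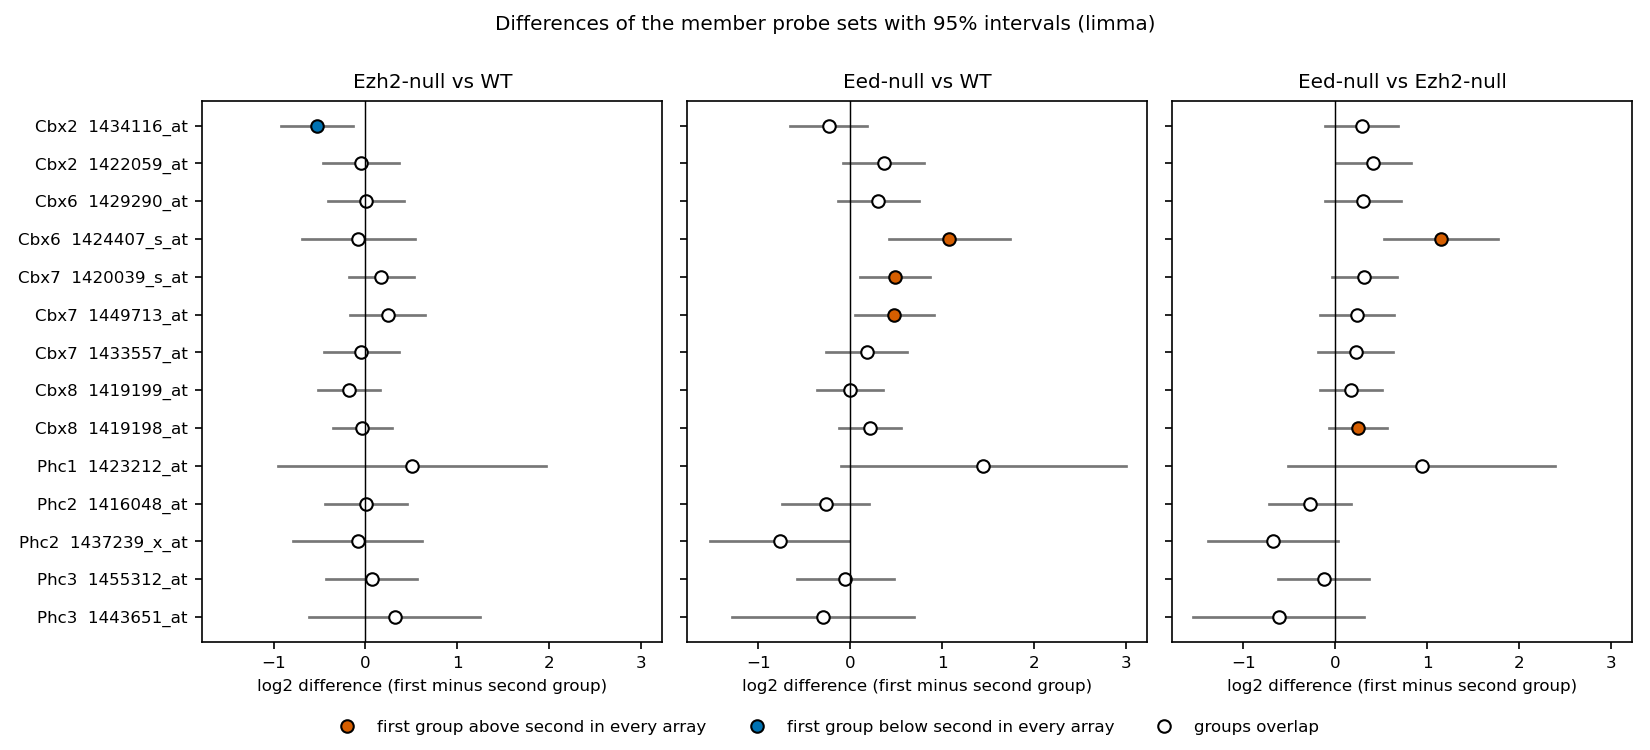
The log2 difference (x axis) of each Cbx and Phc probe set (y axis) in the 3 comparisons, with the 95% interval of limma as a line and filled points where the groups do not overlap. The interval of Cbx6 1424407_s_at, 0.42 to 1.74 for Eed-null against WT and 0.54 to 1.77 for Eed-null against Ezh2-null, lies above 0, and that of Phc1, -0.11 to 3.01, is the widest in that comparison.

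Phc1, a polyhomeotic subunit, was set apart by 1 array. Its probe set 1423212_at read 7.83, 7.62, 7.86 and 7.86 in Ezh2-null, 10.64, 7.79 and 7.77 in Eed-null, and 7.16, 8.32 and 6.37 in WT. Eed-null replicate 1 exceeded every other array, whereas Eed-null replicates 2 and 3 lay within the Ezh2-null range and WT spread widely. The Eed-null mean of 8.73 ± 1.65 (SD, n = 3) was above the WT mean of 7.28 ± 0.98 (SD, n = 3) by 1.45 (SE 0.70, interval -0.11 to 3.01; limma, adjusted p = 0.501). Without Eed-null replicate 1 the difference was 0.50, without WT replicate 3 it was 0.99, without WT replicate 2 it was 1.97, and without both Eed-null replicate 1 and WT replicate 3 it was 0.039. Against Ezh2-null it was 0.94 with all arrays (interval -0.51 to 2.40) and -0.013 without Eed-null replicate 1. The array with the highest Phc1 value also had the lowest average of the 16 monocyte genes, 8.61, and of 20 Myc and nucleolar genes, 9.64, and the array with the lowest Phc1 value, WT replicate 3, had the lowest granulocyte average, 10.96, and the highest Myc and nucleolar average, 10.99. With the granulocyte average as a covariate, the Phc1 difference of Ezh2-null from WT was -0.12, beside 0.51 without the covariate. The part of these list averages in the Phc1 values was not tested beyond the fits with that covariate.

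Phc2, a polyhomeotic subunit whose SAM domain is known to cluster Polycomb-bound sites in the nucleus, leaned the other way on its dimmer probe set. Probe set 1437239_x_at read 8.35, 7.97, 8.56 and 7.96 in Ezh2-null, 6.74, 7.59 and 8.25 in Eed-null, and 8.45, 8.01 and 8.43 in WT. Eed-null replicates 1 and 2 lay below every other array, and replicate 3 lay within WT. The Eed-null mean of 7.53 ± 0.76 (SD, n = 3) and the WT mean of 8.29 ± 0.25 (SD, n = 3) differed by -0.77 (SE 0.34, interval -1.52 to -0.010; limma, adjusted p = 0.459). Without Eed-null replicate 1 the difference was -0.37, and without replicate 3 it was -1.13. The suffix _x_at marks probes that may bind other transcripts.

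The brighter Phc2 probe set, 1416048_at, read 8.91, 8.54, 9.22 and 8.65 in Ezh2-null, 8.61, 8.28 and 8.78 in Eed-null, and 8.77, 8.78 and 8.93 in WT. Here the groups overlapped, and Eed-null replicate 2, not replicate 1, was lowest. The Eed-null difference from WT was -0.27 (interval -0.75 to 0.21), and the Ezh2-null difference was 0.0035 (interval -0.44 to 0.45).

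Phc3, the remaining polyhomeotic subunit, did not separate the groups. Probe set 1455312_at read 9.45, 9.13, 9.61 and 9.57 in Ezh2-null, 9.36, 9.25 and 9.33 in Eed-null, and 9.67, 8.83 and 9.60 in WT. WT replicate 2 was the lowest array and the other WT arrays were above all Eed-null arrays. The difference from WT was 0.071 (interval -0.42 to 0.57) in Ezh2-null and -0.052 (interval -0.58 to 0.48) in Eed-null. The dim probe set 1443651_at, below the array median on all arrays, spanned 4.84 to 6.19 in Ezh2-null, 4.64 to 5.26 in Eed-null and 4.31 to 5.95 in WT, and its differences from WT, 0.32 and -0.30, had intervals of -0.61 to 1.25 and -1.29 to 0.70. Over the 5 Phc probe sets the median difference of Eed-null from WT was -0.27, with 1 positive and 4 negative, and that of Ezh2-null was 0.071, with 4 positive and 1 negative. Against Ezh2-null, the Phc median of Eed-null was -0.27, again with 1 positive and 4 negative.

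**Figure D3:**
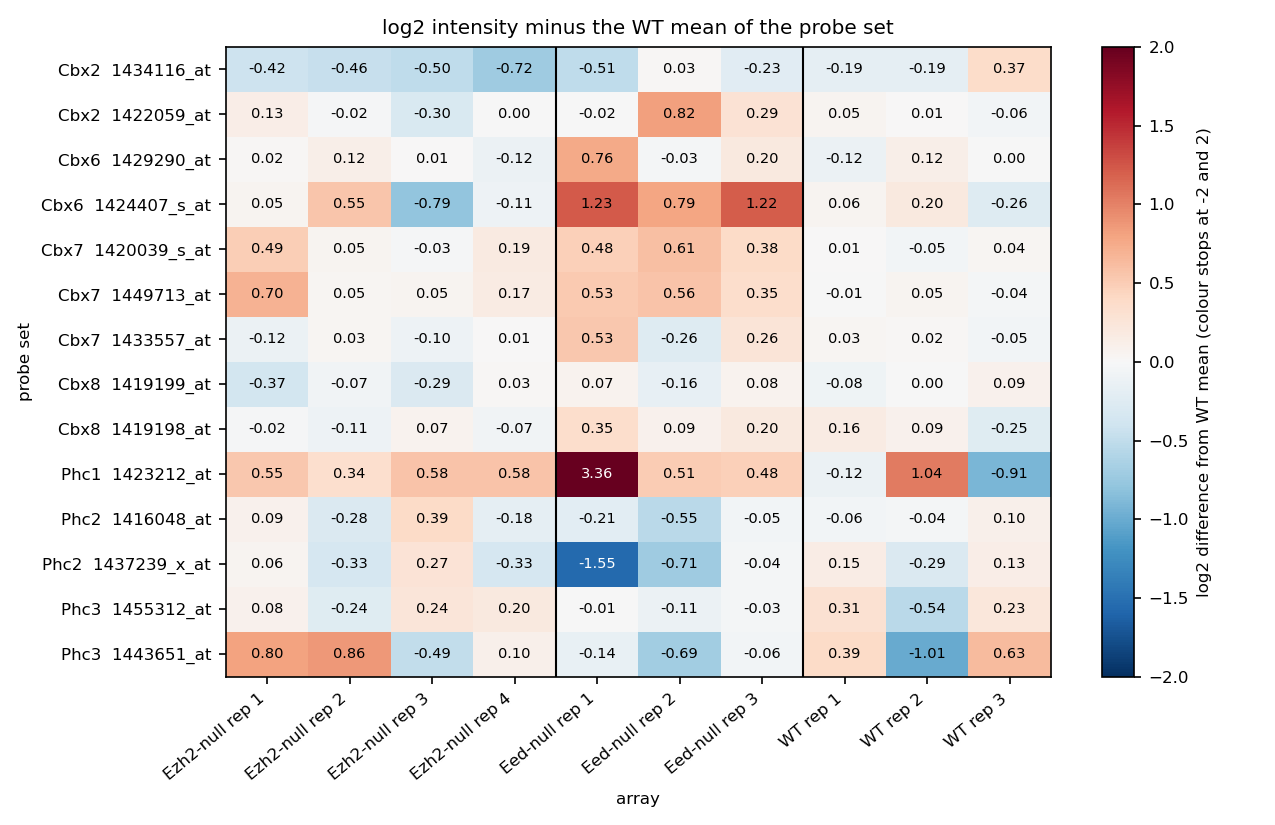
Each cell gives the log2 intensity of a Cbx or Phc probe set (rows) in an array (columns) minus the WT mean of that probe set, with colour from blue (lower) to red (higher). The largest departures are Phc1 at 3.36 and Phc2 1437239_x_at at -1.55, both in Eed-null replicate 1, while Cbx6 1424407_s_at stands at 0.79 to 1.23 in all 3 Eed-null arrays.

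**Figure D4:**
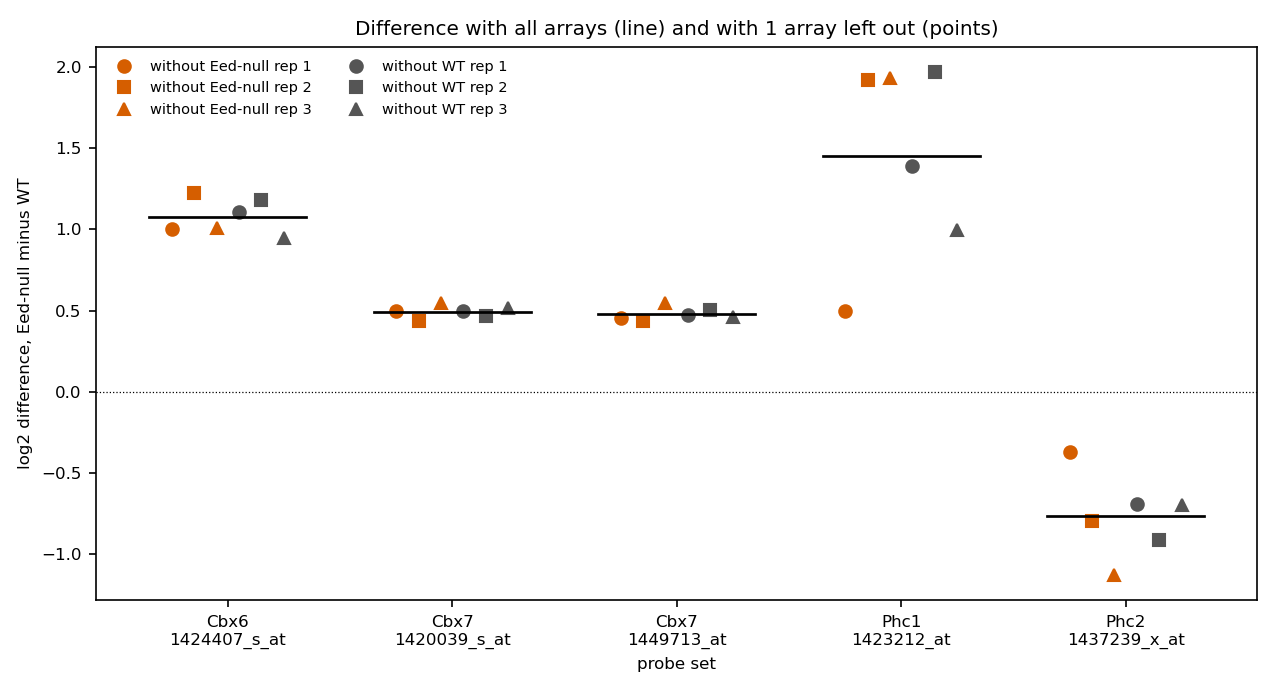
The log2 difference of Eed-null from WT (y axis) for the 4 probe sets at an unadjusted p under 0.05 and for Phc1 (x axis), with all arrays (line) and with each Eed-null or WT array left out in turn (points). The Cbx7 values stay between 0.43 and 0.55, whereas Phc1 runs from 0.50 to 1.97 and Phc2 from -1.13 to -0.37.

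The rest of the complex gave the setting. Of 19 other PRC1 genes measured, 1 passed in Ezh2-null against WT and 1 in Eed-null against WT, in both cases Bmi1, a Pcgf subunit of canonical PRC1, against 0.0243% and 0.117% of all genes at 1 probe set each. Bmi1 averaged 10.39 ± 0.19 in Ezh2-null (SD, n = 4), 9.99 ± 0.20 in Eed-null and 8.44 ± 0.25 in WT (SD, n = 3 each), differences of 1.96 and 1.55 from WT (limma, adjusted p = 0.00840 and 0.0218). These calls were lost with the replicate number as a block (limma, adjusted p = 0.135 and 0.110), and the Eed-null call also with only the compared groups in the fit (adjusted p = 0.204). Leaving out Ezh2-null replicate 4 ended the Ezh2-null call (adjusted p = 0.0555), and leaving out any 1 of 6 arrays (WT replicates 2 and 3, Ezh2-null replicates 3 and 4, Eed-null replicates 2 and 3) ended the Eed-null call (adjusted p = 0.0511 to 0.0790). The difference kept its sign throughout, and over all alternatives it was 1.81 to 2.05 for Ezh2-null and 1.41 to 1.71 for Eed-null. The median difference of the 19 genes was 0.036 in Ezh2-null and 0.091 in Eed-null, beside -0.020 and 0.027 over all genes. The HP1 genes Cbx1, Cbx3 and Cbx5 encode chromobox proteins that read methylated lysine 9 of histone H3, outside Polycomb. Of these, 0 of 3 passed in either comparison with WT (limma, adjusted p = 1.00 in Ezh2-null, 0.427 to 0.966 in Eed-null), while an unadjusted p under 0.05 was reached by 0 and 1 of them, beside 3.57% and 9.94% of all genes. Of 11 PRC2 genes, 0 passed in Ezh2-null against WT and 1, Eed itself, in Eed-null against WT.

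Cbx6 and Cbx7 lie near each other on chromosome 15, and Cbx2 and Cbx8 next to each other on chromosome 11. With 5 measured genes taken on either side and those between, 2 of 11 neighbours of Cbx6 and Cbx7 separated Eed-null from WT with no overlap, and 2 of 10 of Cbx2 and Cbx8, against 12.8% of all genes. Around Phc1 it was 0 of 10. Around Phc2 and around Phc3 it was 2 of 10 each. No neighbour was called in either comparison with WT (limma, with at most 2 in a region at an unadjusted p under 0.05).

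The genes whose log2 values ran most alike with the brightest probe set of each member over the 10 arrays were sought among about 10281 genes brighter than the median. Pearson r is given as a description. The 10 arrays share genotypes and the search picks high values, so no p is attached. Each r was also taken without the array farthest from the mean of the member's probe set. For Cbx7 the most alike were Unc13d, a granule exocytosis gene, and Ptprcap, a CD45-associated protein gene (both r = 0.92, and 0.92 and 0.89 without Eed-null replicate 2). For Cbx6 they were Arvcf and Mbd3 (r = 0.97 and 0.95, and 0.80 and 0.82 without Eed-null replicate 1). Phc1 ran with Dbh and Cklf (r = 0.97 and 0.96, and 0.86 and 0.89 without Eed-null replicate 1), and Cbx2 with Rftn1 and Mgat5 (r = 0.92 and 0.90, and 0.83 and 0.77 without WT replicate 3). Cbx8 ran with Aipl1 and Bmp1 (r = 0.94 and 0.90, and 0.91 and 0.83 without Ezh2-null replicate 1). Phc2 ran with Zfp672 and Bysl (r = 0.86 and 0.85, and 0.74 and 0.76 without Ezh2-null replicate 3), and Phc3 with Plcb3 and Uba6 (r = 0.88 and 0.86, and 0.71 and 0.84 without WT replicate 2). Apart from Unc13d, every r was lower without that array.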

How the data were processed

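RNA of 10 sorted leukaemia samples was extracted with Trizol, amplified with a NuGEN whole-transcriptome kit and read on expression arrays, per the labels' protocols. Each deposited intensity came from RMA, run by the authors, as the submitters' processing notes list it (its version is not given in the sources used here). The values are linear and at least 1, so log2 was taken directly. RMA draws arrays to a common distribution, so a change in total RNA per cell would not show. A second deposited table held intensities of the 7 Ezh2-null and WT arrays after ComBat batch adjustment with another series, per the file header. Its symbols named all probe sets, its values served as an alternative (values under 1, 16 of them below 0, were set to 1), and its 9 columns of the other series were not used.

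Of 45101 probe sets, 64 controls, 5820 without a symbol, 1399 with several and 56 whose symbol reads as a date were set aside. Symbols were updated through a RefSeq table of GRCm38.p6. Limma 3.58.1 in R 4.3.3 was fitted to all 10 arrays, as genotype means, with a trended prior in eBayes, two-sided tests and Benjamini-Hochberg adjustment over 37762 probe sets. P-values weigh each difference of means against the spread between these samples within genotypes, shared over the genotypes and drawn towards the trended prior. The fit was tested on simulated data. The number of arrays limits the precision. SE and intervals are those of limma, and SD is between the arrays of a genotype. Groups were said not to overlap where their ranges shared no value.

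The members and lists were chosen with earlier results of these data known. All member probe sets are reported. The value in every array is given for the brightest probe set of each member and for those at an unadjusted p under 0.05 in any comparison, and in part for others. Of the PRC1, HP1 and PRC2 lists, Ezh2, Eed and called genes are named, besides the HP1 genes, which are the whole of their list. Likeness names 2 genes per member. Alternatives were a block for replicate numbers, the ComBat table, the granulocyte average as a covariate, quantile normalization, the compared groups alone, the dimmest 40% left out, 1 probe set per gene (the brightest), no trend, an offset of 16, each array left out in turn, and, chosen after seeing the data, every non-control probe set and the 2 outlying arrays left out together.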

Additional observations from a re-analysis of the deposited data

Results flagged for a closer look

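Phc1 read 7.62 in Ezh2-null replicate 2, with the other Ezh2-null arrays at 7.83 to 7.86. This array lay far from the others of its group relative to their narrow range. It was the 1 case among 14 groups of 4 arrays, where chance gives about 1 in 20.

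Outside the tested probe sets, 3 carried both the read-through gene Cbx6-Nptxr and Nptxr as symbols. In 1434270_at all Eed-null arrays (6.40, 6.47 and 6.19) were above all WT arrays (5.54, 5.87 and 5.51), a log2 difference of 0.72, and above all Ezh2-null arrays (5.35 to 5.67). In 1421181_at all Eed-null arrays (6.08 to 6.14) were likewise above all WT arrays (5.86 to 6.03), by 0.19. The last, 1450147_at, overlapped between Eed-null (6.97 to 7.29) and WT (6.60 to 7.03). The first 2 lay below the array median on all arrays, and 0 of the 3 passed when every non-control probe set was fitted (limma, adjusted p = 0.149, 0.636 and 0.622 for Eed-null against WT).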

How the results depend on the processing

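No Cbx or Phc probe set was called in any of the 824 values under the alternatives (lowest adjusted p 0.182, limma), so the count of called members was 0 throughout. Of the 42 member differences, 28 kept their sign in every alternative run, among them those of Cbx6 1424407_s_at, Cbx7 1420039_s_at and Cbx7 1449713_at for Eed-null against WT. The other 14 turned at least once. The cause was not tested. For Ezh2-null against WT, Cbx6 1429290_at was -0.035 with the granulocyte covariate and -0.013 with quantile normalization, Phc1 was -0.12 with that covariate, and Phc2 1416048_at was -0.042 in the ComBat table. For Eed-null against WT, Cbx8 1419199_at was 0.021 with the covariate, 5.4e-05 with quantile normalization and 0.0015 without both outlying arrays, and Phc3 1455312_at was 0.016 with quantile normalization and 0.043 without both outlying arrays. Without those arrays, Cbx2 1434116_at was 0.087 and Cbx7 1433557_at -0.026 in the same comparison, and Phc1 was -0.013 for Eed-null against Ezh2-null. With single arrays left out, the ranges for Ezh2-null against WT were -0.11 to 0.034 for Cbx2 1422059_at, -0.055 to 0.068 for Cbx6 1429290_at, -0.28 to 0.16 for Cbx6 1424407_s_at, -0.16 to 0.049 for Cbx8 1419198_at, -0.13 to 0.099 for Phc2 1416048_at, -0.20 to 0.22 for Phc3 1455312_at and -0.19 to 0.63 for Phc3 1443651_at. For Eed-null against WT they were -0.00025 to 0.40 for Cbx7 1433557_at, -0.046 to 0.073 for Cbx8 1419199_at, -0.32 to 0.10 for Phc3 1455312_at and -0.80 to 0.017 for Phc3 1443651_at, and for Eed-null against Ezh2-null -0.013 to 1.42 for Phc1.

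Over all probe sets, Ezh2-null against WT called 10, Eed-null against WT 43 and Eed-null against Ezh2-null 25. With single arrays left out these were 2 to 12, 16 to 53 and 13 to 51, and with 1 probe set per gene 5, 27 and 16. The compared groups alone gave 1 for Eed-null against WT. For Ezh2-null against WT the granulocyte covariate gave 4 and the brighter probe sets 6. Without both outlying arrays, Eed-null against Ezh2-null gave 55. With the replicate block the counts were 0, 5 and 4 and no member was called. Deviations of arrays that share a number correlated at -0.20 to 0.34. Arrays with different numbers were not compared, so these values cannot decide whether the numbers pair the samples. The dimmest 40% included both Cbx2 probe sets and Phc3 1443651_at, which that alternative leaves without a value.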
